A study of Mus musculus with 20 samples.

Results

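Chromatin accessibility was followed at the GATA6-bound regions around 4 genes of the endocytic uptake machinery, Lrp2, Cubn, Amn and Dab2. A region was taken for a gene when its midpoint lay within 100 kb of the gene start in the GENCODE vM21 annotation of the mm10 genome, which selected 44 of the 42403 GATA6-bound regions. Lrp2 (start at chr2:69586065, minus strand) had 20 regions, Cubn (chr2:13491813, minus strand) 13, Dab2 (chr15:6299788, plus strand) 9 and Amn (chr12:111271095, plus strand) 2. Each region is named by its gene and by the distance of its midpoint from the gene start, with a plus sign for the transcribed side. The window rule uses no accessibility value, although the genes were chosen with earlier results of these data known, and the regions described most closely were picked in part by their own values (nearest to the start, highest at d2, largest change from d0 to d4).

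The study induced GATA6 in mouse embryonic stem (ES) cells and asked how this transcription factor opens chromatin on the way to primitive endoderm. ATAC-seq, which reads accessible DNA by the insertions of the Tn5 transposase, was carried out on 20 samples. The induced line was KH2, of the genotype C57BL/6 x 129/Sv, carrying a doxycycline-inducible gata6 cassette that encodes GATA6 with an HA tag, and the study's methods worked with selected clones. The cells were kept with LIF on mitomycin C-inactivated feeder fibroblasts and received 1 µg/mL doxycycline, except at d0. The groups were d0 (3 samples), 8h (3), 16h (3), d1 (3), d2 (3) and d4 (2), named by their titles, whereas the treatment labels of the first 4 induced groups give 16, 24, 48 and 72 h in place of 8 h, 16 h, 1 day and 2 days. The comparison line was XEN line X10 (3 samples), wild-type extra-embryonic endoderm stem cells of CD1 origin, grown on feeders without LIF and without doxycycline. XEN and d4 therefore differed in line, strain and medium as well as in cell type, and these cannot be told apart.

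The 4 proteins work together in receptor-mediated endocytosis. LRP2 (megalin) is a giant receptor of the LDL receptor family, CUBN (cubilin) is a peripheral membrane receptor that has no transmembrane segment, and AMN (amnionless) is the transmembrane partner that carries cubilin to the cell surface. DAB2 is a clathrin-associated adaptor that binds the cytoplasmic tails of such receptors. The apical uptake of maternal proteins by these molecules is a hallmark of visceral endoderm, a derivative of primitive endoderm, and the same molecules act in the kidney proximal tubule.

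The DNA that GATA6 could read in these regions is given for the regions described most closely, each with the best GATA6 match listed by the authors. The best match in a region need not lie at its GATA6 summit, the point of highest GATA6 signal. Measured from the summit, the centre of the printed GATA6 matches ran from -323 bp (Dab2 +75.7 kb) to 343 bp (Cubn +9.3 kb), with 2 bp at Lrp2 +3.3 kb. The 13 bases in capitals are the match, written 5′ to 3′ on the strand named, and 8 flanking bases on each side are in lower case. The 2 regions at the Lrp2 promoter end carried the following matches, at chr2:69585321-69585333 (minus strand) and chr2:69582987-69582999 (plus strand).
Lrp2 +0.7 kb: tttacgagCCCAGATAAGGCGgggaggtg
Lrp2 +3.3 kb: ctaaaaaaAGGAGATAAACTCggagaaac

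The regions with the largest Lrp2 changes carried matches at chr2:69604276-69604288 and chr2:69540402-69540414, both on the minus strand.
Lrp2 -18.1 kb: tcccagttTGCAGATAAAGAGactgagtc
Lrp2 +45.4 kb: ctcagaagGTTAGATAAGAAGttggctcc

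The Cubn regions carried matches at chr2:13492191-13492203 (minus), chr2:13496262-13496274 (plus) and chr2:13482822-13482834 (plus). The second of them had a score of 14.8, and the third has no GATA letters in its capitals.
Cubn -0.3 kb: tgcacagtATGAGATAAAGAAatcacttc
Cubn -5.0 kb: cactggcaGGGAGATAAGAGGgaagtttg
Cubn +9.3 kb: gggggaccAAAAGAAAAGAAAttgccaat

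Both Amn regions carried matches on the plus strand, at chr12:111268164-111268176 and chr12:111337880-111337892.
Amn -3.0 kb: tgtgggtgACCAGATAACAGGacctgccc
Amn +67.0 kb: agcagtccTCAAGATAACAGAcggtgaga

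At Dab2 the matches lay at chr15:6375167-6375179 (minus) and chr15:6248663-6248675 (plus), and both hold GATT and no GATA. Dab2 -39.7 kb had no GATA6 match, and its best SOX17 match (9 capitals, chr15:6260117-6260125, plus strand) is shown instead.
Dab2 +75.7 kb: atgtgcttGTCTGATTAGACAttccagag
Dab2 -51.2 kb: taacattgCAGAGATTAGGACtgctaaga
Dab2 -39.7 kb: catcaatcTCTATTGTCtcggtgat

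A GATA6 match was listed for 40 of the 44 regions (90.9%, against 89.7% of all regions). The 6 letters AGATAA stood in 26 of these 40 matches read in the direction of the match (65%), against 59.6% of the 38052 matches over all regions, and another 9 held GATA without AGATAA (22.5% against 23%). The median match score was 10.7 at the 44 regions and 10.2 over all regions. These letters and scores describe the windows only.

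The deposited ATAC values are group averages in RPM (reads scaled to library size), and they are not divided by region width. The averages of all induced groups from 8h onward and of XEN could be split back into whole reads of single libraries, 16 in all, lettered A to C within a group from the deepest down. The XEN column resolved into 2 libraries, although 3 XEN samples are labelled, and d0 could not be resolved. Libraries held between 181 and 288 M reads (M, mega) by the authors' scaling, except XEN library B of 43.3 M, in which the median region of the 44 had 8 reads. All 44 regions were resolved at 8h, d1, d4 and XEN, 42 at 16h and 37 at d2, where the 7 missing regions were among the more accessible (averages of 0.542 RPM or more). By the study's methods the samples of a group came from independent cultures, and the recovered libraries carry no replicate numbers. The RPM of the median GATA6-bound region was itself higher than at d0, by 0.03 (8h), 0.16 (16h), 0.39 (d1), 0.83 (d2), 0.56 (d4) and 0.49 (XEN) on the log2 scale. Each count of members under the main settings is therefore given beside that of all regions.

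Accessibility at the 44 regions rose between d1 and d2 and stayed high at d4. On the log2(RPM + 0.03) scale the median change from d0 was 0.36 at d1, 1.47 at d2 and 1.49 at d4, against 0.31, 0.69 and 0.52 over all GATA6-bound regions. In XEN cells it was 0.79, against 0.40 over all regions. In bulk material, fewer accessible cells and less accessibility per cell cannot be told apart.

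In the averaged columns a gain or loss was counted where the difference of log2(RPM + 0.03) from d0 exceeded 1, a scale that understates the fold of low regions. No member had gained by this measure at 8h or 16h (0% and 0.00236% of all regions). At d1 6 of 44 had, against 4.55% of all regions, at d2 28 (36.8% of all regions), at d4 33 (31%) and in XEN 14 (27.7%). No member had lost by it at any time (of all regions, 0% did at 8h, 0.00236% at 16h, 0.00707% at d1, 1.41% at d2, 7.27% at d4 and 8.83% in XEN). In plain RPM 2 members fell past 2-fold, Lrp2 +3.3 kb in XEN (0.406 to 0.202 RPM) and the barely covered Lrp2 +32.1 kb at 16h (0.0165 to 0.00637 RPM). The highest average of the induced series fell on d4 in 22 members (50%, against 28% of all regions) and on d2 in 20 (45.5% against 45%), with 1 each on d1 and 8h (13.5% and 5.94% of all regions). Per kb of region width, the median member lay at 0.101 RPM at d0, below the 0.142 of all regions, and at 0.383 at d4, above the 0.249 of all regions.

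**Figure D1:**
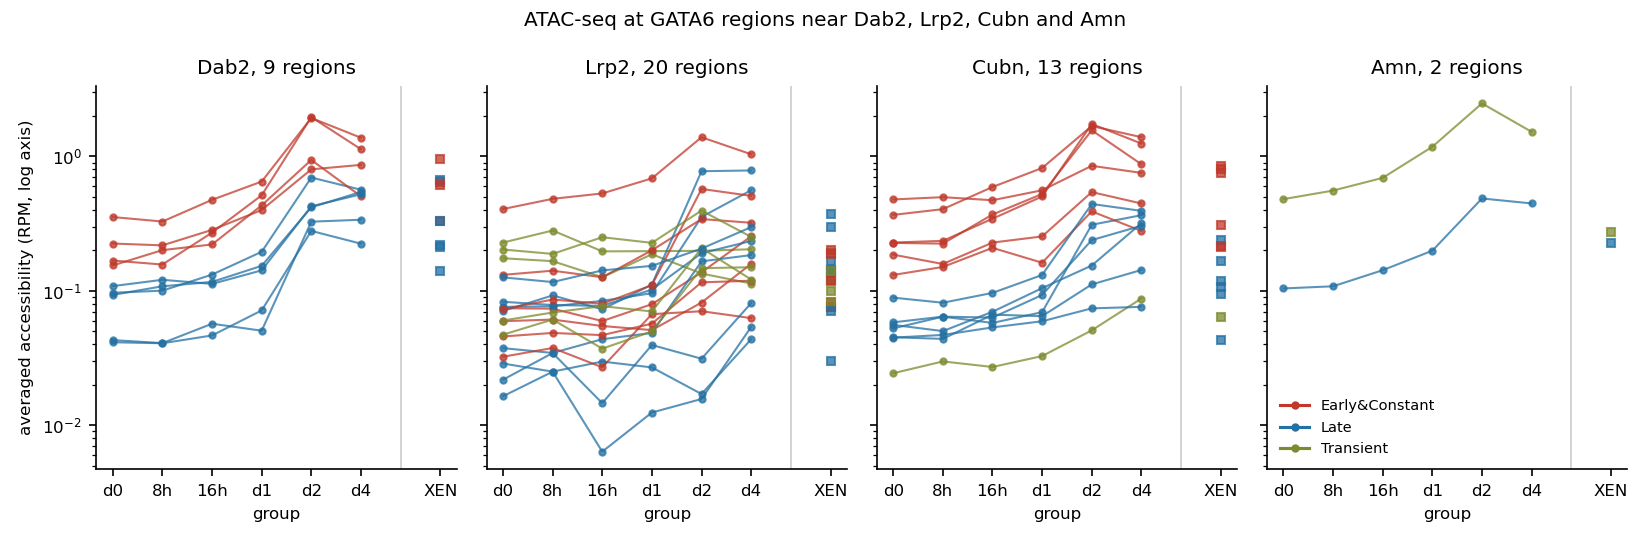
Accessibility of the 44 regions by gene over the induced series and in XEN cells. The vertical axis gives the authors' averaged RPM on a log scale and the horizontal axis the group, with 1 line per region over the induced series and a square for XEN, coloured by GATA6 class. Most lines climb between d1 and d2, whereas 8 Lrp2 regions and 3 Cubn regions change by less than 1 on the log2(RPM + 0.03) scale from d0 to d4.

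**Figure D2:**
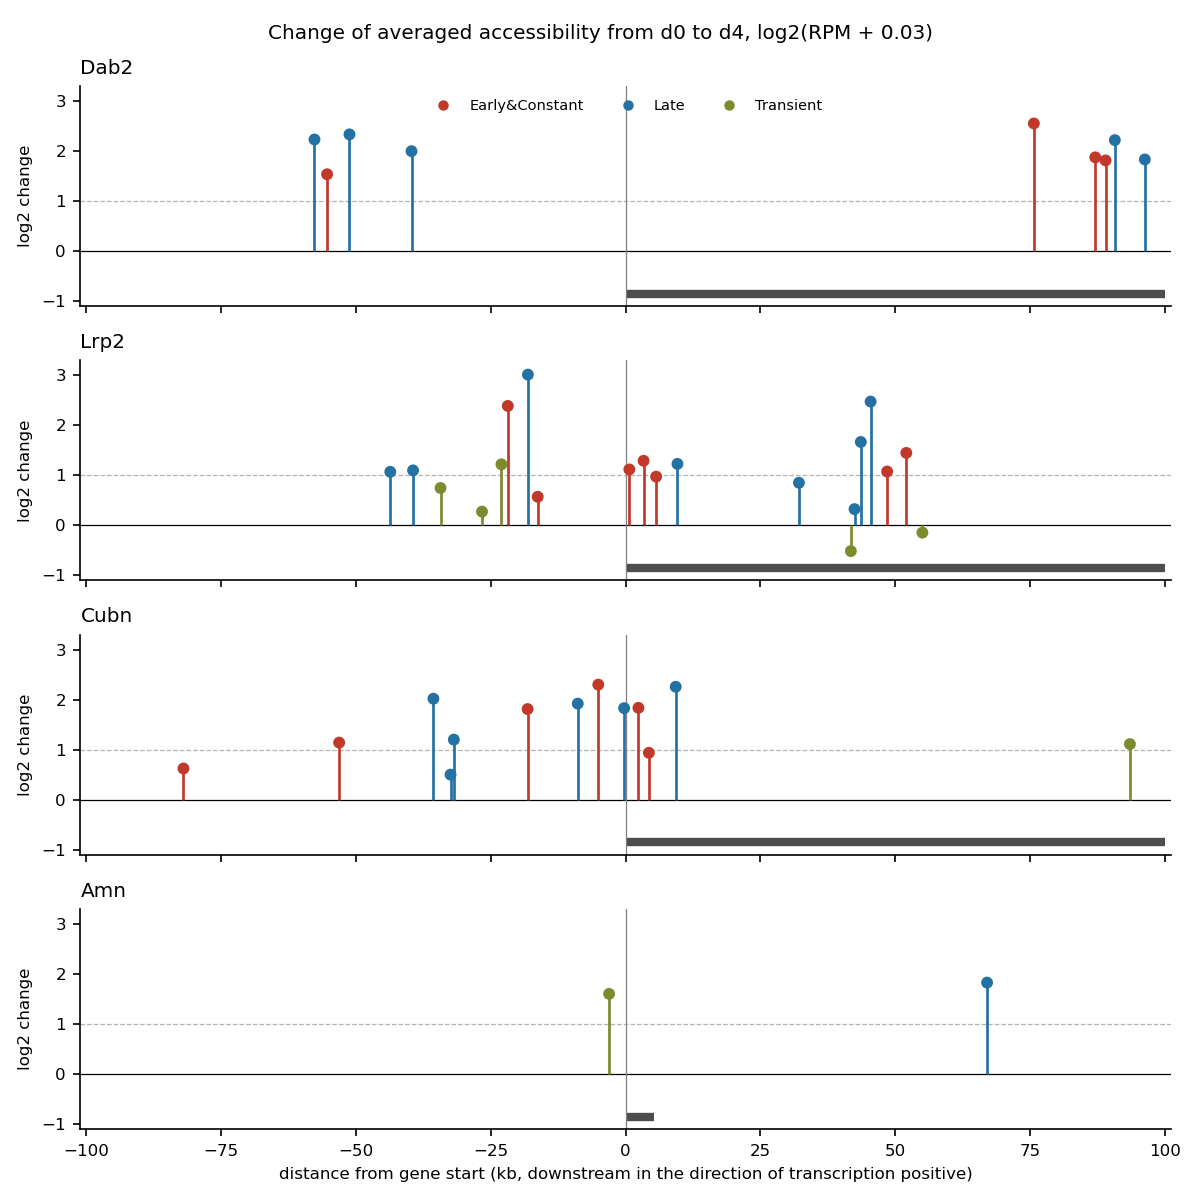
Change in accessibility from d0 to d4 against the distance of each region from its gene start. Each of the 44 stems is 1 region, coloured by GATA6 class, its height is the difference of log2(RPM + 0.03) between the averaged columns, the dashed line marks a change of 1, the horizontal axis is in kb with the transcribed side positive, and the dark bar is the gene. Changes over 1 lie on both sides of all 4 gene starts.

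The recovered libraries gave the same course with a test. limma was fitted on log2(RPM + 0.03) of all libraries over all resolved regions, and a region was called at an adjusted p below 0.05 with a change above 2-fold. The prior degrees of freedom were infinite. The standard errors (SE) and p-values given for single regions therefore rest on a spread shared with other regions, and do not measure that of the region's own libraries. Against 8h, 0 of 42 regions were called at 16h in either direction (0.00486% of all tested regions were called higher and 0.00243% lower), with 1 higher (4.79% of all) and 1 lower (1.69%) at an unadjusted p below 0.05. At d1 3 of 44 were called higher (5.62% of all), namely Dab2 +75.7 kb, Cubn -18.1 kb and Amn -3.0 kb. This count was 9 without 8h library B, 6 without d1 library A, and 1 without 8h library C, d1 library B or d1 library C. No share over all regions is given for these left-out counts, so their shifts cannot be told from general ones.

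At d2 22 of the 37 resolved regions were called higher than at 8h (35.3% of all) and at d4 31 of 44 (31.2% of all), with 0 lower at either time (1.16% and 6.37% of all). By gene, the d4 calls were 11 of 20 at Lrp2, 9 of 13 at Cubn, both at Amn and 9 of 9 at Dab2. The libraries of d2 lay entirely above those of 8h at 29 of 37 regions (48.9% of all) and entirely below at 0 (4.94%). The libraries of d4 lay entirely above those of 8h at 35 members (49.3% of all regions) and entirely below at 1 (14.2%). Between d1 and d2 18 of 37 rose (19.1% of all) and 0 fell (0.704% of all), and the d2 libraries lay entirely above those of d1 at 25 (34.6% of all) and entirely below at 0 (6.82%). Between d2 and d4 limma called 0 of 37 higher (2.22% of all) and 0 lower (8.58% of all), while 6 were higher (7.1% of all) and 1 lower (19.5% of all) at an unadjusted p below 0.05. The d4 libraries lay entirely above those of d2 at 10 of 37 (14.4% of all) and entirely below at 3 (35.4% of all).

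These counts moved with the scaling. With each library centred on its median, 20 members were called higher at d4 (16.3% of all regions) and 0 lower (15.5%), while the calls over all regions went from 83% higher to 51.2% higher. At d2 the centred counts were 11 higher (12.6% of all) and 3 lower (14.5%), and the share of higher calls over all regions went from 96.8% to 46.5%. At d1 the centred count was 1 (1.3% of all), and the share went from 99.7% to 76.5%. From d1 to d2 it was 8 (7.95% of all), with a share of 96.4% before centring and 55.6% after.

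Lrp2, the large receptor, gained at some of its regions and not at others. The region nearest its start, Lrp2 +0.7 kb (chr2:69585137-69585584, intronic, Early&Constant), read 0.136, 0.188 and 0.0997 RPM in the 8h libraries, 0.262, 0.400 and 0.363 at d2, and 0.332 and 0.310 at d4. Every d2 and d4 library lay above every 8h library. The limma change from 8h to d4 was 1.07 ± 0.38 (log2, SE, adjusted p = 0.014), but it was 0.53 (adjusted p = 0.092) after median-centring, and it was lost without 8h library C (0.88, adjusted p = 0.061) and without either d4 library (1.02 and 1.11, adjusted p = 0.0996 and 0.073).

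The highest Lrp2 region at d2 was Lrp2 +3.3 kb (chr2:69581950-69583490, intronic, Early&Constant, bound by pluripotency factors already at d0). It read 0.403, 0.691 and 0.356 RPM at 8h, 0.493, 0.942 and 0.624 at d1, and 1.09 and 0.989 at d4, with an average of 1.39 at d2. Its d4 libraries lay above all 8h libraries, while the d1 libraries overlapped those of 8h. The change to d4 was 1.11 ± 0.39 (log2, SE, adjusted p = 0.013). After centring it was 0.57 (adjusted p = 0.061), and it was also lost without 8h library A or C (1.01 and 0.93, adjusted p = 0.052 and 0.058) or either d4 library (1.04 and 1.17, adjusted p = 0.11 and 0.073).

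The largest changes at Lrp2 lay away from its start. The intergenic Lrp2 -18.1 kb (chr2:69603764-69604551, Late) read 0.136, 0.0893 and 0.0522 RPM at 8h, 0.485, 1.05 and 0.789 at d2, and 0.749 and 0.823 at d4. The d2 and d4 libraries were clear of all 8h libraries, whereas d1 (0.0689, 0.111 and 0.155) overlapped 8h. The change was 2.71 ± 0.34 at d2 (adjusted p = 8.6e-14) and 2.79 ± 0.38 at d4 (adjusted p = 1.8e-11). Lrp2 +45.4 kb (chr2:69540199-69541106, intronic, Late) read 0.117, 0.0940 and 0.0190 RPM at 8h and 0.543 and 0.577 at d4, a change of 2.61 ± 0.38 (adjusted p = 2.6e-10), with d2 in between at 0.210, 0.491 and 0.363.

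The remaining Lrp2 regions were mixed. Between d0 and d4, 8 of the 20 changed by less than 1 on the log2(RPM + 0.03) scale in the averaged columns, from Lrp2 +41.8 kb (0.175 to 0.113 RPM, -0.51 on that scale) to Lrp2 +5.7 kb (0.0458 to 0.119 RPM, 0.97). Of these, only Lrp2 +5.7 kb was called higher at d4 than at 8h by limma (1.03 ± 0.35, adjusted p = 0.0098). The scale hides some plain gains among low regions, as at Lrp2 +32.1 kb (0.0165 to 0.0539 RPM). The 3 regions furthest upstream, at -34.3, -39.4 and -43.6 kb, lay closer to the start of Bbs5 than to that of Lrp2. Lrp2 +48.5 kb was the only member in a coding exon.

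Cubn, the peripheral receptor, gained at regions on both sides of its start. Cubn -0.3 kb (chr2:13491578-13492558, Late), which covers the start of the transcript Cubn-201, read 0.0891, 0.0987 and 0.0570 RPM at 8h, 0.267, 0.534 and 0.528 at d2, and 0.317 and 0.470 at d4. No d2 or d4 library reached down to 8h. The change was 2.04 ± 0.34 at d2 (adjusted p = 1.9e-08) and 1.92 ± 0.38 at d4 (adjusted p = 3.9e-06).

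Cubn -5.0 kb (chr2:13495414-13498310, Early&Constant) was the highest Cubn region at d2, with an average of 1.74 RPM there. It read 0.263, 0.254 and 0.190 RPM at 8h, 0.417, 0.613 and 0.480 at d1, and 1.24 and 1.26 at d4. The d1 libraries were already clear of 8h, but the change of 1.00 ± 0.35 (adjusted p = 0.061) was not called, and that to d4 was 2.28 ± 0.39 (adjusted p = 1e-07).

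The intronic Cubn +9.3 kb (chr2:13481999-13483023, Late) read 0.0563, 0.108 and 0.0285 RPM at 8h, 0.249, 0.367 and 0.315 at d2, and 0.281 and 0.449 at d4, all above 8h. Its change to d4 was 2.12 ± 0.37 (adjusted p = 1.6e-07). The 3 Cubn regions that changed by less than 1 on the log2(RPM + 0.03) scale from d0 to d4 were +4.3 kb (0.94, from 0.131 to 0.279 RPM), -32.4 kb (0.50) and -81.9 kb (0.62). Cubn -81.9 kb covers the start of Vim, the intermediate filament gene vimentin, and was the only member classed as accessible at d0, and Cubn -53.1 kb covers the start of Trdmt1.

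Amn, the membrane partner of cubilin, had 2 regions. Amn -3.0 kb (chr12:111267544-111268564, intergenic) was one of 7 members that the authors classed as Transient for GATA6. It read 0.581, 0.719 and 0.370 RPM at 8h, 0.845, 1.51 and 1.19 at d1, 1.74, 3.03 and 2.65 at d2, and 1.27 and 1.78 at d4. All later libraries from d1 on exceeded the 8h libraries, and the d4 libraries overlapped those of d1 and d2. The change from 8h was 1.05 ± 0.35 at d1 (adjusted p = 0.048), 2.10 ± 0.35 at d2 (adjusted p = 2.2e-08) and 1.43 ± 0.39 at d4 (adjusted p = 0.0011), the last being 0.89 (adjusted p = 0.0041) after centring and 1.19 (adjusted p = 0.075) without d4 library B.

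Amn +67.0 kb (chr12:111337825-111338363, Late) lies in an intron of Cdc42bpb, a neighbouring kinase gene. It read 0.131, 0.15 and 0.0427 RPM at 8h, 0.380, 0.614 and 0.465 at d2, and 0.402 and 0.492 at d4, with d2 and d4 wholly above 8h. The change to d4 was 1.89 ± 0.38 (adjusted p = 7.5e-06).

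At Dab2, the clathrin adaptor, each of the 9 regions gained. The region nearest its annotated start was 39.7 kb upstream, and 5 regions lay in the gene body between +75.7 and +96.2 kb, where Dab2 +87.0, +89.0 and +90.7 kb cover the starts of shorter annotated Dab2 transcripts. Dab2 +75.7 kb (chr15:6374983-6375925, intronic, Early&Constant) read 0.127, 0.230 and 0.114 RPM at 8h, 0.363, 0.675 and 0.502 at d1, and 0.99 and 1.27 at d4, with an average of 1.96 at d2. Each later group was clear of the one before it among these. The change was 1.55 ± 0.35 at d1 (adjusted p = 0.0015) and 2.68 ± 0.39 at d4 (adjusted p = 2.9e-10).

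The 2 other closely described Dab2 regions are intergenic and Late. Dab2 -51.2 kb (chr15:6248253-6249014) read 0.0422, 0.0329 and 0.0475 RPM at 8h, 0.232, 0.372 and 0.378 at d2, and 0.382 and 0.294 at d4, a change to d4 of 2.37 ± 0.37 (adjusted p = 3.6e-09). Dab2 -39.7 kb (chr15:6259733-6260526) read 0.103, 0.169 and 0.0902 RPM at 8h and 0.452 and 0.593 at d4, a change of 1.90 ± 0.38 (adjusted p = 6.9e-06). In both, the d2 and d4 libraries exceeded all those of 8h. Per kb of width, the highest average of all members was that of Dab2 +87.0 kb at d2, at 2.78 RPM, followed by Amn -3.0 kb at 2.43 and Dab2 +75.7 kb at 2.08.

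**Figure D3:**
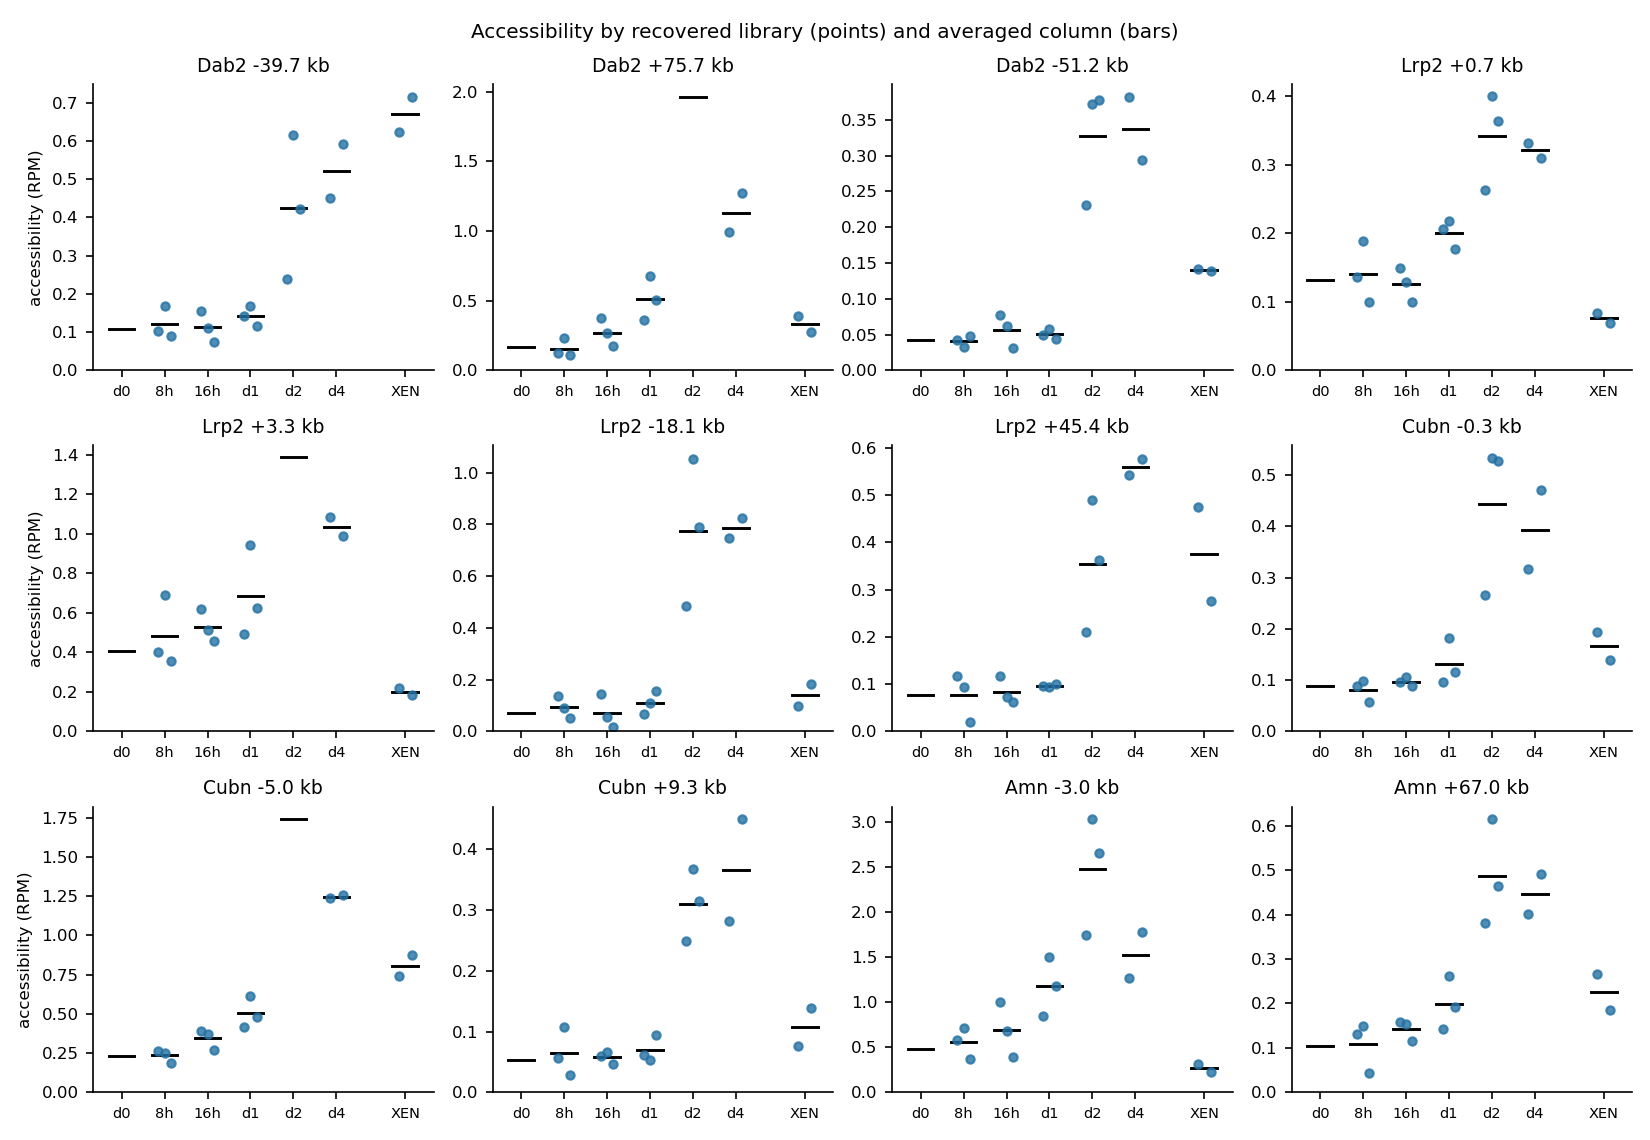
Accessibility of the closely described regions in each group. The vertical axes give RPM from 0, points are recovered libraries and short bars the authors' averages, which stand alone where no libraries were resolved. At d4 both libraries lie above all 8h libraries in each of these regions, for example 0.749 and 0.823 against at most 0.136 RPM at Lrp2 -18.1 kb. Most of these regions were picked by their own d2 value or change from d0 to d4, which favours this. It held at 35 of the 44 members and at 49.3% of all regions.

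Summed over its regions, each gene's accessibility rose. The averaged columns gave sums of 2.0 RPM at d0 and 5.54 at d4 for Lrp2 (2.78-fold), 1.99 and 6.68 for Cubn (3.36-fold), 0.585 and 1.97 for Amn (3.37-fold), and 1.28 and 6.07 for Dab2 (4.73-fold). Dab2, Cubn and Amn were higher at d2 than at d4, with sums of 7.78, 8.15 and 2.96 RPM at d2, and Lrp2 was level at 5.55. With each column scaled to its median region, the log2 changes from d0 were 1.54 at d2 and 1.51 at d4 for Dab2, 0.98 and 1.02 for Cubn, 1.29 and 1.02 for Amn and 0.42 and 0.75 for Lrp2, so that Cubn and Lrp2 were then higher at d4.

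In the recovered libraries the Lrp2 sum was 2.18, 2.91 and 1.45 RPM at 8h and 5.59 and 5.50 at d4, and the Cubn sum was 2.15, 2.52 and 1.49 against 6.48 and 6.88. The Amn sum was 0.713, 0.870 and 0.413 RPM against 1.67 and 2.27, and the Dab2 sum 1.36, 1.76 and 0.826 against 5.81 and 6.33. No d4 sum overlapped an 8h sum. The differences in mean log2 sum were 1.4, 1.73, 1.62 and 2.27 in that order, and 0.72, 1.05, 0.93 and 1.59 with each library scaled to its median region. Each gave p = 0.2 in a two-sided exact permutation test, the smallest that 3 libraries against 2 allow.

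At d1 the loci were spread. The sums of Dab2, Cubn and Amn at d1 were clear of 8h, by 1.03, 0.73 and 1.08 in log2 (two-sided exact permutation p = 0.1 each, the smallest that 3 against 3 allow). The Lrp2 sums at d1, 2.34, 2.88 and 2.50 RPM, overlapped those of 8h, with a difference of 0.29 (exact permutation p = 0.5). With each library scaled to its median region the differences were 0.57, 0.27 and 0.62 for Dab2, Cubn and Amn and -0.16 for Lrp2. Whether Lrp2 differed from the other genes at d1 was not tested.

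**Figure D4:**
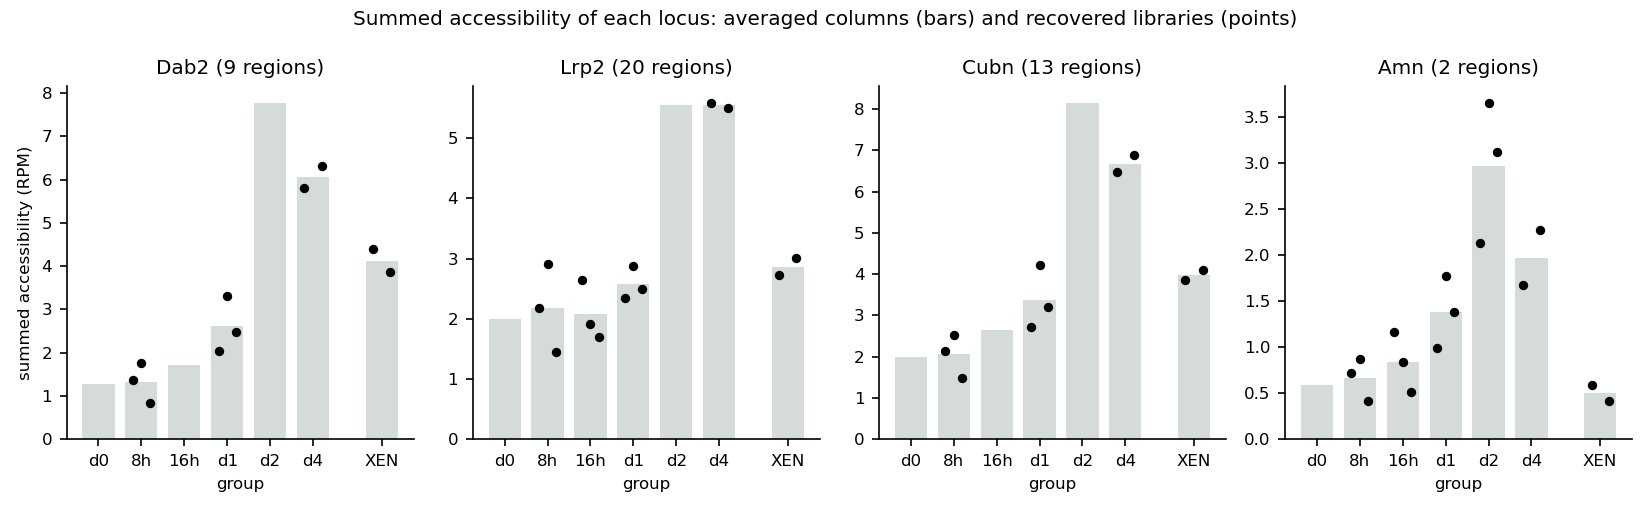
Summed accessibility of each locus over the groups. The vertical axes give summed RPM from 0, bars are the authors' averages and points are single libraries where all regions of the locus were resolved. The Lrp2 sums at d1 (2.34 to 2.88 RPM) sit among the 8h sums (1.45 to 2.91 RPM), while the d4 sums of all 4 genes sit above their 8h sums.

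XEN cells were less accessible than d4 cells at many of these regions. limma called 12 of 44 lower in XEN than at d4 (11.4% of all regions) and 0 higher (6.19% of all), with 0 higher also at an unadjusted p below 0.05. Every XEN library lay below both d4 libraries at 28 members (38.5% of all regions) and above at 4 (26%). The 12 were 4 at Lrp2 (+3.3, +0.7, -18.1 and -21.8 kb), 4 at Cubn (+9.3, -0.3, -8.9 and -18.1 kb), Amn -3.0 kb and 3 at Dab2 (-57.6, -51.2 and +75.7 kb). With 1 library left out the count was 7 (without XEN library B, the shallow one), 5 (without XEN library A), 6 or 4 (without d4 library A or B), and each lone library was then assumed to vary like the others. For these left-out counts no share over all regions is given, so their fall cannot be told from a general one. The median change from d4 to XEN in the averaged columns was -0.52, against -0.09 over all regions and -0.16, -0.12 and -0.27 over those of chromosomes 2, 12 and 15.

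The largest falls from d4 to XEN were at Lrp2 and Amn. Lrp2 +3.3 kb read 0.218 and 0.185 RPM in the XEN libraries (-2.21 ± 0.43, adjusted p = 2.2e-05), and Lrp2 +0.7 kb read 0.0832 and 0.0693 (-1.73 ± 0.42, adjusted p = 0.00081). Lrp2 -18.1 kb read 0.0971 and 0.185 RPM (-2.30 ± 0.42, adjusted p = 4.4e-06) and Amn -3.0 kb 0.316 and 0.231 (-2.35 ± 0.43, adjusted p = 5.2e-06). All 4 regions had every XEN library below every d4 library, and at Lrp2 +0.7 kb, Lrp2 +3.3 kb and Amn -3.0 kb the XEN libraries also lay below all 8h libraries.

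Other calls in XEN rested on single libraries. Dab2 +75.7 kb read 0.388 and 0.277 RPM in XEN, a change of -1.68 ± 0.43 (adjusted p = 0.0015) that was -1.46 (adjusted p = 0.067) without XEN library B and -1.51 (adjusted p = 0.066) without d4 library B. Cubn +9.3 kb read 0.0763 and 0.139 RPM (-1.53 ± 0.41, adjusted p = 0.0027) and was lost without XEN library A (-1.20, adjusted p = 0.087) or d4 library B (-1.22, adjusted p = 0.12). The calls at Cubn -0.3 kb (-1.1 ± 0.42, adjusted p = 0.046) and Dab2 -51.2 kb (-1.1 ± 0.40, adjusted p = 0.039) were lost without any 1 of the 4 libraries, with changes between -1.36 and -0.83 and between -1.27 and -0.93.

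Dab2 -39.7 kb differed from these, with 0.624 and 0.716 RPM in XEN against 0.452 and 0.593 at d4 (0.35 ± 0.42, adjusted p = 0.60). The locus sums in XEN were 2.73 and 3.0 RPM for Lrp2, 3.85 and 4.11 for Cubn, 0.583 and 0.416 for Amn and 4.40 and 3.86 for Dab2, all below d4. The differences from d4 were -0.95, -0.75, -1.98 and -0.56 in log2 (two-sided exact permutation p = 0.333 each, the smallest that 2 against 2 allow).

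**Figure D5:**
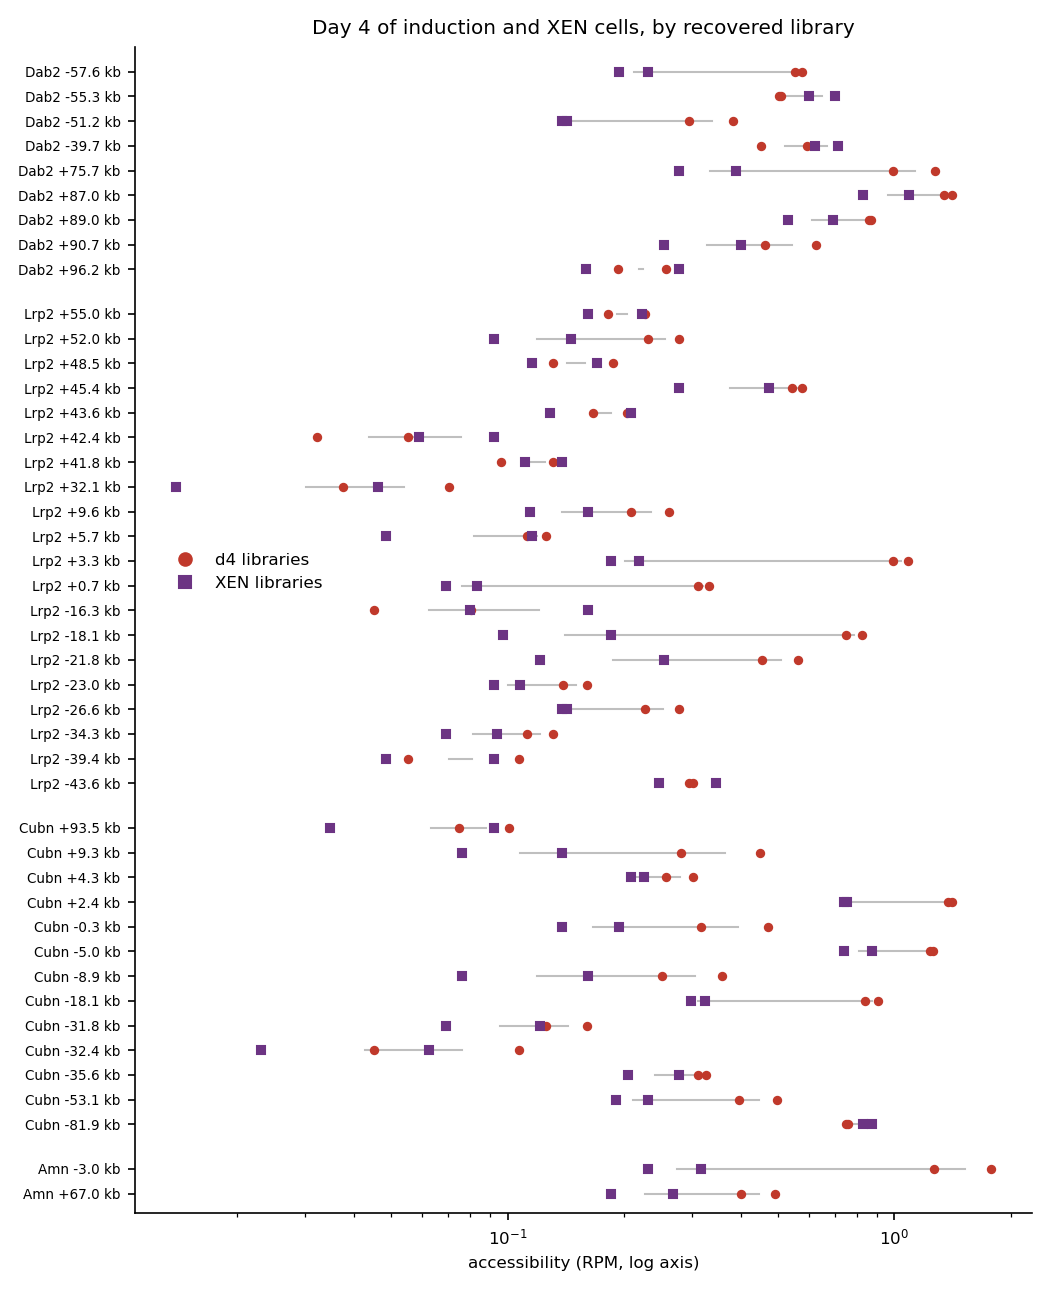
Accessibility of the 44 regions at d4 and in XEN cells. The horizontal axis gives RPM on a log scale, with 1 row per region, circles for the 2 d4 libraries, squares for the 2 XEN libraries and a grey line between the averages. Both squares lie below both circles at 28 regions and above them at 4.

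The authors' region classes give a second description of the same regions. For GATA6 binding 17 members were Early&Constant (38.6%, against 28% of all regions), 20 Late (45.5% against 33.6%) and 7 Transient (15.9% against 38.4%), and 5 of the Transient regions were at Lrp2. SOX17, an endoderm factor, was bound at 35 members (79.5% against 44.5%). Pluripotency factors (PTF) gained ectopic binding during induction at 21 (47.7% against 16.6%), of which 8 were Dab2 regions out of 9, and were already present at d0 at 3 (6.82% against 20.8%). At d0 35 members were classed as closed (79.5% against 61.3%). These shares describe the 44 regions and were not tested.

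By class, the median change from d0 to d4 was 1.45 at the Early&Constant members (0.89 over all such regions), 1.83 at the Late members (1.00) and 0.75 at the Transient members (-0.22). At members with ectopic PTF binding it was 1.87 (1.27 over all such regions). From d4 to XEN the median change was -0.61 at the Early&Constant members (-0.46 over all such regions) and -0.54 at the Late members (0.07). At the Transient members it was -0.44 (0.04), and at members with ectopic PTF binding -0.98 (-0.59). The classes most common among the members thus included some that fell in XEN over all regions too.

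In ES cells before induction, by the authors' clustering of histone marks, 15 members had no mark (naive, 34.1% against 18%) and 15 were facultative heterochromatin (34.1% against 22.3%), 10 of the latter at Lrp2 and 9 of the former at Cubn. After knockdown of Oct4 during induction the authors classed GATA6 binding as increased at 11 members (25% against 8.57%), 7 of them at Lrp2. They classed it as decreased at 3 members (6.82% against 6.25%), Lrp2 -18.1 kb, Cubn +93.5 kb and Amn -3.0 kb. By position, 23 members were intronic, 18 intergenic, 2 in a UTR and 1 in a coding exon. The members were wider than other regions, at a median of 793.5 bp against 525 bp.

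Other genes of uptake and endoderm were counted in the same way, none of whose regions was shared with the 44. From 8h to d4, with 31.2% of all regions called higher and 6.37% lower, the LDL receptor family had 19 of 59 regions higher and 3 lower, with 5 of 10 higher at Lrp6. Cargo and clathrin adaptors had 63 of 145 higher and 3 lower. Among them were 7 of 8 at Myo6, the motor of endocytic vesicles, 11 of 23 at Cltc, the clathrin heavy chain, and the single region of Dab1, the neuronal relative of Dab2, which went from 0.0381 to 0.501 RPM between d0 and d4.

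Genes of endosomes and lysosomes had 37 of 99 regions higher and 2 lower, with 9 of 14 at Ctsl, the protease cathepsin L, and other uptake receptors and their ligands had 19 of 83 higher and 4 lower. Secreted visceral endoderm proteins had 13 of 53 higher and 1 lower, and basement membrane genes, products of endoderm, 56 of 115 higher and 1 lower. Markers of cell identity were counted too. Primitive endoderm markers had 91 of 132 regions higher and 1 lower, pluripotency markers 18 of 84 higher and 14 lower, and markers of the feeder fibroblasts 4 of 24 higher and 3 lower, and their part in the changes at Lrp2, Cubn, Amn and Dab2 was not tested. Col4a1 (13 of 18 higher) and Lama1 (14 of 18) stood in both the basement membrane and the primitive endoderm list, so these 2 counts are not independent.

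The genes whose summed accessibility followed the same course most closely were chosen by Pearson's r of log2 sums over the 7 averaged columns, among protein-coding genes with at least 3 regions and a start over 200 kb away. For Lrp2 the closest was Cd151 (r of 0.998). For Cubn they were Fyb, Tnfaip3 and Fdxr, for Amn Galr2, Srp68 and Stac2, and for Dab2 Gm2000, Smap1 and Rtn4rl2 (r of 0.999 or above). Galr2 and Srp68 had identical sums in all 7 columns, over 5 regions each, so they are not separate matches. With only 7 points that share their libraries, r above 0.95 was common, being reached by 2149 of 14556 genes for Lrp2 and 3411 of 14558 for Cubn.

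The 100 kb window set which regions were counted. The furthest region inside it was Lrp2 +55.0 kb for Lrp2 (change from d0 to d4 of -0.15), Cubn +93.5 kb for Cubn (1.11), Amn +67.0 kb for Amn (1.83) and Dab2 +96.2 kb for Dab2 (1.83). The nearest regions outside it, at -127, 121, 105 and -145 kb, changed by 0.05, -0.58, 1.29 and 1.24.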

How the data were processed

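The authors trimmed reads with cutadapt, aligned them with Bowtie2 to mm10, removed duplicates with SAMtools, shifted read ends for Tn5, counted short fragments in each GATA6 peak and deposited RPM, averaged per group. The deposited motif scores are the authors' FIMO scores. The 52 other per-sample columns (binding and histone marks) were not used.

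Single libraries were recovered from the averages, since each average must be a sum of whole reads over library sizes: 24993 rows are exact and 17410 rounded to 7 digits, accepted at a posterior of 0.95 (42 members are rounded). In a check on 3000 exact rows per group, rounded for the purpose, 99.96% to 100% of the resolved rows came out right. The lowest value in each library was 1 read. The limma p-values (limma 3.58.1, R 4.3.3, eBayes with trend) were Benjamini-Hochberg adjusted over all tested regions. The same fit was also run on simulated data, whose outcome is not given here. Python 3.11.15 with scipy 1.17.1 gave exact permutation tests. Sequences were read from GRCm38.p6, the assembly of mm10.

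Regions and gene lists were chosen with earlier results of these data known. Closely described were, per gene, the region nearest to the start, that highest at d2, and the 2 with the largest change from d0 to d4. Other regions named beside counts fall outside this rule. Alternatives were other pseudocounts (0.006 and 0.15 RPM), scalings, a filter on low values (mean of at least 0.05 RPM), a 50 kb window and left-out libraries, and, chosen after seeing the data, a posterior of 0.99 and the removal of regions at starts of other genes. Values of some single genes are not reported here.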

Additional observations from a re-analysis of the deposited data

How the results depend on the processing

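No paired analysis was possible because neither the averaged columns nor the recovered libraries carry replicate numbers. No count changed its direction. Of the members that gained past 1 on the log2(RPM + pseudocount) scale against d0, the 6 at d1 became 2 with a pseudocount of 0.15, 1 after median-centring and 0 after quantile normalisation. The 28 at d2 became 17, 12 and 18 (centred, quantile, 50 kb window), with 3 and 2 lower in place of 0. The 33 at d4 became 21 with the pseudocount of 0.15, 21 centred, 20 by quantiles and 21 within 50 kb, with 1 lower under both scalings, and the 14 in XEN became 6, 8 (centred) and 8 (50 kb), with 3 and 2 lower under the scalings. Of the limma calls against 8h, the 3 at d1 became 1 under centring, the larger pseudocount and quantiles, the 22 at d2 became 11, 14 and 8 (with 3 and 1 lower under the scalings), and the 31 at d4 became 20, 19 and 19, with 1 lower under quantiles, and 20 within 50 kb. Under quantiles, 1.31% of all regions were called higher at d1, 11.2% at d2 and 16.9% at d4. Called lower under quantiles were 0.47%, 10.2% and 15.3% of all regions. The 18 from d1 to d2 became 8, 6 and 5, the 0 higher from d2 to d4 became 5 and 2 under the scalings, and the 12 lower in XEN became 6 (pseudocount 0.15) and 7 (quantile). Of all regions, 5.41% were higher from d1 to d2 under quantiles, 5.76% (centred) and 3.25% (quantile) were higher from d2 to d4, and 9.01% were lower in XEN under quantiles. For counts against d0, other pseudocounts, the window and left-out libraries, no share over all regions is given. A fall there cannot be told from a general one. With 1 library left out, the counts ran from 1 to 9 at d1, 18 to 24 at d2, 25 to 35 at d4, 13 to 20 from d1 to d2 and 4 to 7 for lower in XEN. Beyond the scaling itself and the fewer regions of the smaller window, the cause was not tested. Of the alternatives for single named regions called as reported, 176 kept the call and 35 lost it, and 39 alternatives of uncalled ones gave no call.

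d0 has no recovered libraries, so no test against uninduced cells was possible, and 8h stood in as baseline. Group sizes of 2 or 3 bar an exact permutation p below 0.1. The prior degrees of freedom in limma were infinite, so the p-values rest on a shared spread. At d2 the 7 unresolved members include Dab2 +75.7 kb, Lrp2 +3.3 kb and Cubn -5.0 kb, which have no d2 test.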
